A study of Rattus norvegicus with 4 samples.

Results

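Semaphorins, plexins and neuropilins, the family of guidance cues and receptors, were examined in RNA-seq counts of cultured rat Schwann cells (SCs), the glia of peripheral nerve. Members were taken by gene symbol alone, after the family had been chosen with earlier results of these data known: rows named Sema3 to Sema7 with a letter, Plxna to Plxnd with a digit, and Nrp1 or Nrp2, with no row that carries a copy suffix. This gave 26 of the 17949 genes in the table, of which 19 are semaphorins, 5 plexins and 2 neuropilins. The SCs came from rat sciatic nerve and were expanded in medium with 10% serum, 4 μM forskolin and 5 ng/ml heregulin-β1, so all samples share these 2 stimulants of SC growth. One group was infected for 48 h with a lentivirus carrying the Egr2-AS, the antisense RNA of the Egr2 promoter, in a plasmid that also encodes the red fluorescent protein DsRed-Express2 (Lenti-AS, n = 2), and the control group with a virus carrying green fluorescent protein (Lenti-GFP, n = 2). The groups therefore also differ in the fluorescent protein, and its effect cannot be told apart from that of the Egr2-AS. The study's methods speak of biological replicates, each with cells of every condition, without saying whether a replicate was a separate animal, culture or infection. Strain, age, sex and number of animals are not given in the sources used here, and p-values measure the spread between these samples. The level of the Egr2-AS was not analysed here, so the labels were not checked against it.

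Semaphorins are extracellular cues first known for making axons turn away or their growth cones collapse. They bind plexins, transmembrane receptors whose intracellular part switches off the small GTPases of the Rap and R-Ras group. Most secreted (class 3) semaphorins cannot bind a plexin well by themselves and use a neuropilin, Nrp1 or Nrp2, as the ligand-binding partner, whereas Sema3e binds Plxnd1 directly. Classes 4, 5 and 6 span the membrane and Sema7a is held there by a lipid anchor. In injured nerve, semaphorins made by glia and fibroblasts are among the signals that steer regrowing axons.

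Total counts lay between 74024323 and 96185890 per sample. The SC markers Sox10, S100b, Ngfr and Erbb3 were above 60 CPM in all samples, CPM being the count relative to a library size scaled by the TMM method, while Gap43 and Fabp7, also listed as SC markers, were under 1 CPM throughout. The Lenti-AS samples differed from each other more than the Lenti-GFP samples did. A chi-square per gene, which is 1 for repeated sampling of a single library, was 103 between the Lenti-AS samples and 32.4 between the Lenti-GFP samples. The SC markers as a list (13 genes in the table) summed to between 11086 and 12844 CPM per sample. Of its 12 tested genes 1 was called, the myelin gene Mbp, which was higher in Lenti-AS, where 1.31% of all genes tested were called higher. Sox10 had 163 CPM in Lenti-AS 1 and between 61.3 and 77.1 CPM in the other samples, and globin genes summed to 3001 CPM in Lenti-AS 2 and at most 6.61 CPM elsewhere. Egr2 itself, the gene whose promoter the antisense RNA comes from, had 49.2 and 42.1 CPM in Lenti-GFP and 61.2 and 54.0 CPM in Lenti-AS (log2 fold change 0.33, adjusted p = 0.152). Bulk counts cannot tell fewer cells of a type from less RNA per cell.

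In Lenti-AS the neuropilins changed in opposite directions and 2 secreted semaphorins were lower. Nrp1, Sema3c and Sema3e were lower in Lenti-AS and Nrp2 was higher, and no plexin and no transmembrane semaphorin was called. A gene was called at an adjusted p under 0.05 (edgeR's quasi-likelihood test, Benjamini-Hochberg over the 12446 genes tested) with a fitted fold change of at least 1.3. Of the 26 members, 25 had at least 10 counts in at least 2 samples and were tested. The member left out, Sema5b, had 5 and 10 counts in Lenti-GFP and 8 and 3 counts in Lenti-AS. Called members numbered 3 lower (12% of 25) and 1 higher (4%), where 0.667% of all genes tested were called lower and 1.31% higher. DESeq2 called the same 4 members in the same directions, where it called 1.12% of all genes lower and 3.92% higher, and it gave no adjusted p for 5 low members. At an unadjusted p under 0.05 there were 8 members (32.0%), against 21.8% of all genes tested. Both Lenti-AS samples lay above both Lenti-GFP samples for 8 members (32.0%) and below for 4 (16.0%), where the shares of all genes tested were 27.7% and 27.2%, so separation of the groups was common throughout the transcriptome. The median log2 fold change of the 25 members was 0.01, and that of all genes tested was also 0.01. The 4 calls did not hold in every fit. With the replicate number as a block in edgeR, 0 of the 4 passed (adjusted p from 0.068 to 0.115).

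**Figure D1:**
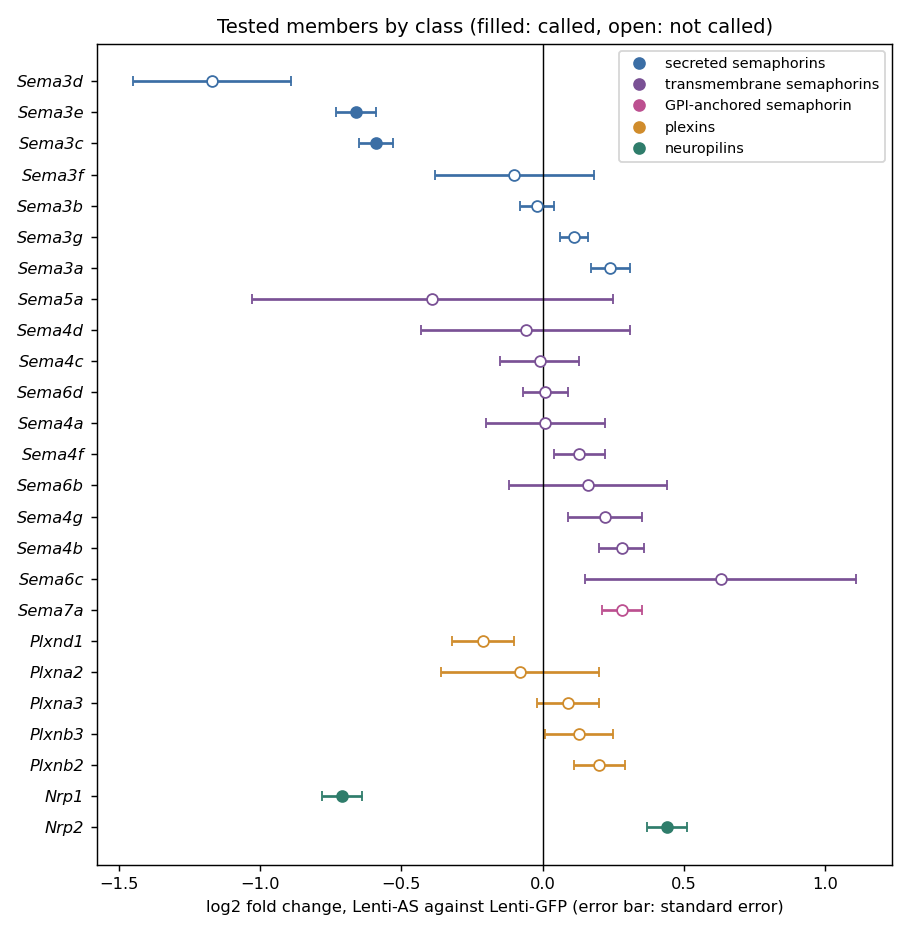
Log2 fold change (Lenti-AS against Lenti-GFP, horizontal axis) of the 25 tested members, listed on the vertical axis by class. Bars are standard errors, filled points are called and open points are not called. Sema3e, Sema3c and Nrp1 lie between -0.59 and -0.71 and Nrp2 at 0.44, while the plexins lie between -0.21 and 0.20.

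The secreted ligands were examined first. Sema3c, a ligand of both neuropilins that is best known from heart and vessel development, had 650.1 and 707 CPM in Lenti-GFP and 458 and 445 CPM in Lenti-AS. The Lenti-AS samples were both below the lower Lenti-GFP sample, and the gap between the groups exceeded the differences within them. The log2 fold change was -0.59 (standard error 0.06, adjusted p = 0.0232), a level 1.5-fold lower. Sema3e, the ligand of Plxnd1, had 112 and 121 CPM in Lenti-GFP and 74.8 and 72.3 CPM in Lenti-AS. Here too the groups were apart, with a log2 fold change of -0.66 (standard error 0.07, adjusted p = 0.0210), a level 1.58-fold lower. In group means, Sema3c fell from 679 ± 40.2 CPM to 452 ± 9.46 CPM and Sema3e from 116 ± 6.35 CPM to 73.6 ± 1.75 CPM (SD, n = 2 samples for every mean). Whether the 2 genes differed in their change was not tested.

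The promoters of both genes are shown because these are the 2 ligands that were called and they lie on 1 chromosome. The sequences are from RefSeq, build GRCr8, and hold the 300 bases around the annotated start, most of them upstream, 5′ to 3′ on the strand of the gene. The Sema3c window is chr4:18699578-18699877 on the minus strand and the Sema3e window chr4:21510325-21510624 on the minus strand. Capitals mark the GC box GGGCGG or its reverse complement. The reads were counted on another build (rn6), and whether these starts are the ones used in SCs was not tested.
Sema3c: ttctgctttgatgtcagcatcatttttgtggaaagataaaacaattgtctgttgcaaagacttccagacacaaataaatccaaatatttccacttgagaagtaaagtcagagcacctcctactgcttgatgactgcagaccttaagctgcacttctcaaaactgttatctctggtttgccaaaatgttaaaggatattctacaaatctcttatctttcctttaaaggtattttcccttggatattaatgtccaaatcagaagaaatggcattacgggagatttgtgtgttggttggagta
Sema3e: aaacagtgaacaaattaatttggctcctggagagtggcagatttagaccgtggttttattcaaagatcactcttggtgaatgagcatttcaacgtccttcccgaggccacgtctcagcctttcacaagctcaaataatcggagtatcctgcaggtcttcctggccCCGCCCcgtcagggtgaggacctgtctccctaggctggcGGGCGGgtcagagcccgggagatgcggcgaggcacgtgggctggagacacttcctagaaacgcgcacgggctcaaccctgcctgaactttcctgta
The windows differ in base composition, with 36.3% G and C in Sema3c and 55.3% in Sema3e, where the median of all 33469 RefSeq promoters was 51.7%. Sema3e holds 2 GC boxes and Sema3c 0, and 33.1% of all promoters hold at least 1.

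No other secreted semaphorin was called. Sema3d had 1.14 and 1.57 CPM in Lenti-GFP and 0.605 and 0.599 CPM in Lenti-AS, from 106, 149, 53 and 45 counts. The groups were apart in the same direction as for Sema3c and Sema3e, but the gene was not called (log2 fold change -1.17, standard error 0.28, unadjusted p = 0.00585, adjusted p = 0.0971). The log2 fold change of Sema3d was -1.18 without Lenti-AS 1, -1.16 without Lenti-AS 2, -1.38 without Lenti-GFP 1 and -0.91 without Lenti-GFP 2. An edgeR fit with the replicate number as a block gave -1.15 (adjusted p = 0.154), and DESeq2 gave no adjusted p. Sema3a, the classical repellent that acts through Nrp1, had 23.0 and 25.3 CPM in Lenti-GFP and 28.5 and 28.7 CPM in Lenti-AS. Its Lenti-AS samples were the higher ones, with a log2 fold change of 0.24 (standard error 0.07, unadjusted p = 0.0156) that did not pass adjustment (adjusted p = 0.140). Sema3g, a ligand that prefers Nrp2, had 666 and 652 CPM in Lenti-GFP and 702 and 719 CPM in Lenti-AS. Its log2 fold change was 0.11 with an adjusted p of 0.274. Sema3b had 3134 and 3139 CPM in Lenti-GFP and 2987 and 3183 CPM in Lenti-AS, so that its Lenti-GFP values lay between those of Lenti-AS. Sema3f, a ligand of Nrp2, had at most 0.953 CPM, with 54 to 89 counts per sample, and overlapping groups. The 7 secreted semaphorins had a median log2 fold change of -0.10.

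**Figure D2:**
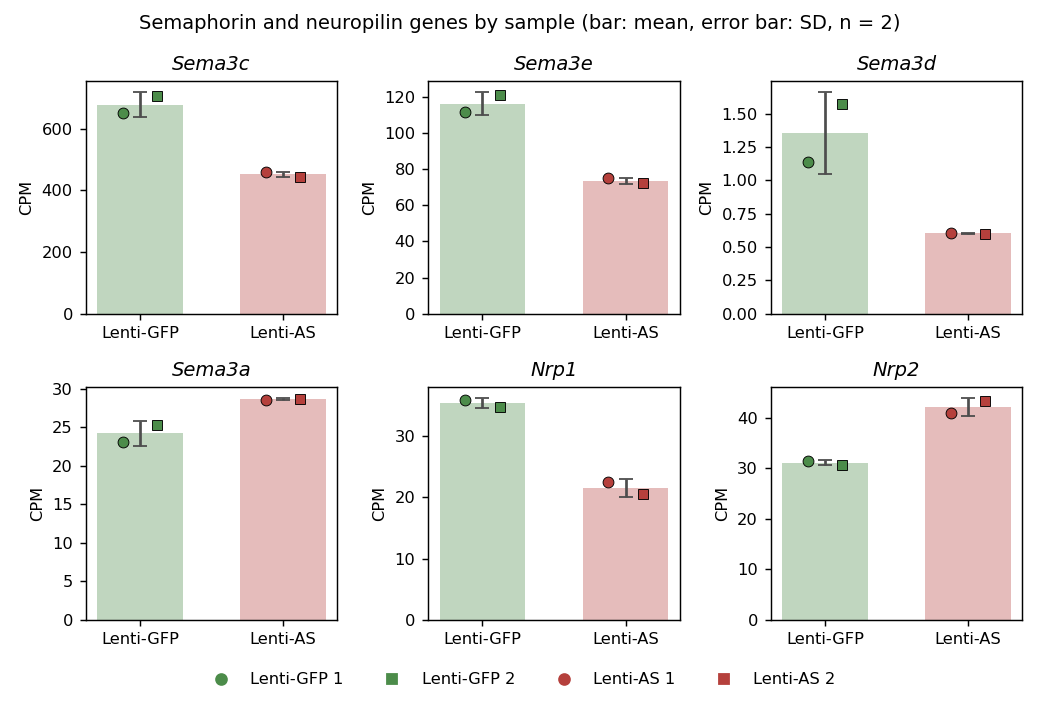
CPM (vertical axes, from 0) of 6 members in the Lenti-GFP and Lenti-AS samples. Points are single samples, bars the mean and error bars the SD of n = 2. Sema3c, Sema3e, Sema3d and Nrp1 have both Lenti-AS points below both Lenti-GFP points, and Sema3a and Nrp2 have them above, with Sema3d and Sema3a not called.

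Sema3c, Sema3e, Sema3a and Sema3d follow each other on chromosome 4, which allowed their changes to be set beside those of the genes between them. This comparison was chosen after the values had been seen. In the gene order of RefSeq GRCr8, 20 protein-coding genes start from Sema3c to Sema3d, of which 7 are in the counts table and 5 were tested. Of these 5, 4 are the semaphorins themselves, and Cacna2d1 is the only other gene. The 2 called by edgeR and by DESeq2 were Sema3c and Sema3e, both lower and already counted among the members. Of all genes tested, edgeR called 0.667% lower and DESeq2 1.12%. At an unadjusted p under 0.05 there were 4, the semaphorins, where 21.8% of all genes were. Since members set the ends of the stretch, these counts are not a result about the region. Cacna2d1, a calcium channel subunit gene located between Sema3c and Sema3e, had 22.1 and 24.3 CPM in Lenti-GFP and 20.8 and 22.9 CPM in Lenti-AS, with overlapping groups (log2 fold change -0.09, standard error 0.09, adjusted p = 0.595). Its fitted change was lower by as much as its standard error, and whether the genes of the stretch changed together was not tested. Hgf and Pclo, which also lie between Sema3c and Sema3e, had 1 to 12 and 6 to 11 counts per sample and were not tested. Sema3a, located between Sema3e and Sema3d, had its Lenti-AS samples above the Lenti-GFP samples, on the other side of 0 from both neighbours. The Sema3b and Sema3f pair, on chromosome 8, is separated by 3 genes. Of the 4 tested genes of that stretch 0 were called by edgeR or DESeq2. At an unadjusted p under 0.05 there was 1 (Slc38a3, log2 fold change 0.97, adjusted p = 0.188), where 21.8% of all genes were.

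**Figure D3:**
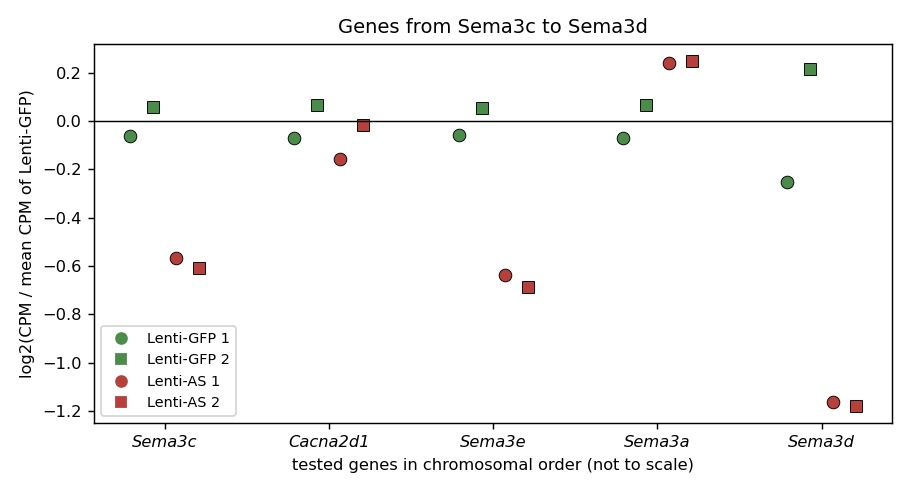
Level of each tested gene from Sema3c to Sema3d as log2 of the CPM over the mean CPM of Lenti-GFP (vertical axis), in chromosomal order but not to scale (horizontal axis). Each point is 1 sample. The Lenti-AS points lie below the Lenti-GFP points for Sema3c, Sema3e and Sema3d, overlap them in range for Cacna2d1 and lie above them for Sema3a.

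The neuropilins moved in opposite directions. Nrp1, which binds Sema3a and is also a receptor for vascular endothelial growth factor (VEGF), had 36.0 and 34.8 CPM in Lenti-GFP and 22.6 and 20.6 CPM in Lenti-AS. The log2 fold change was -0.71 (standard error 0.07, adjusted p = 0.0221), a level 1.64-fold lower. Nrp2, which binds Sema3f and Sema3g, had 31.5 and 30.7 CPM in Lenti-GFP and 40.9 and 43.4 CPM in Lenti-AS. It rose 1.35-fold, with a log2 fold change of 0.44 (standard error 0.07, adjusted p = 0.0431). The mean of Nrp2 went from 31.1 ± 0.523 CPM to 42.1 ± 1.77 CPM, and that of Nrp1 from 35.4 ± 0.832 CPM to 21.6 ± 1.43 CPM (SD, n = 2 samples for every mean). For each gene the groups were separate. The ratio of Nrp2 to Nrp1 counts, which does not depend on the scaling of the libraries, was 0.876 and 0.884 in Lenti-GFP and 1.81 and 2.11 in Lenti-AS, a 2.22-fold difference. This ratio combines the changes given above and was not tested. It compares samples, not the level of one gene with the other, since the counts are not corrected for transcript length.

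Nrp1 is abundant in endothelial cells, so markers of that type were read beside it. Of 10 endothelial markers, 8 were under 1 CPM in all samples, among them Pecam1 (at most 0.3535 CPM) and Cdh5 (at most 0.0536 CPM). The summed level of the list was 26.0 and 25.7 CPM in Lenti-GFP and 20.4 and 19.6 CPM in Lenti-AS, most of it from Tek. Of its 6 tested genes 0 were called, where 0.667% of all genes tested were called lower and 1.31% higher. The part of the difference in summed level in the result for Nrp1 was not tested. Of 8 neuronal markers 5 were under 1 CPM, and the summed list was 299 and 314 CPM in Lenti-GFP and 236 and 242 CPM in Lenti-AS. Of its 5 tested genes 1 was called, Nefl, which was lower. The defining fibroblast genes Dcn, Lum and Dpt were under 1 CPM in all samples, as were 6 of 10 fibroblast markers in all, and the list summed to between 2700 and 4339 CPM, nearly all of it from the collagen genes Col1a1 and Col3a1. Col3a1 had 3261 and 2955 CPM in Lenti-GFP and 2198 and 2400 CPM in Lenti-AS (log2 fold change -0.43, adjusted p = 0.052), so it was lower in the same samples as Nrp1, Sema3c and Sema3e, and its part in those results was not tested. Of 10 macrophage markers 8 were under 1 CPM, with sums from 3.65 to 4.63 CPM, and the 8 mural cell markers summed to between 237 and 292 CPM, mainly from Pdgfrb.

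The neuropilin promoters are shown for the same reason as those of the ligands, here for a pair that moved apart. The Nrp1 window is chr19:73256307-73256606 and the Nrp2 window chr9:71617004-71617303, both on the plus strand, from RefSeq GRCr8, with the same convention for capitals.
Nrp1: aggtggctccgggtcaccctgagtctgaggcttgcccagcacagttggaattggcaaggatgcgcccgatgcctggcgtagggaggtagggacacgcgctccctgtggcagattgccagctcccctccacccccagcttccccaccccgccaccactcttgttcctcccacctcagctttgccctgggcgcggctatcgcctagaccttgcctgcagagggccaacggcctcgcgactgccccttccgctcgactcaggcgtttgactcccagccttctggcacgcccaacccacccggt
Nrp2: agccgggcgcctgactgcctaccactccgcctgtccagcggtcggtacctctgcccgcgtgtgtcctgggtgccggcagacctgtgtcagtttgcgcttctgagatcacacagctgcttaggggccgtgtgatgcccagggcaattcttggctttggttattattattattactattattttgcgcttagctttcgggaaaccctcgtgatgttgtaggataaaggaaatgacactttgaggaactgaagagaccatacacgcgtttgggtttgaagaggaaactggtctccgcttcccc
Neither holds a GC box, and 66.3% of the Nrp1 window and 53.0% of the Nrp2 window is G or C. Motifs of 4 kinds of factor, chosen because the study names them or SCs are known to use them, were also searched on both strands: GCGTGGGCG for EGR factors, TGANTCA for AP-1, AANATGGCG for YY1 and ACAANG for SOX factors. None of these letters is in any of the 4 printed windows. Among all promoters the shares with at least 1 match were 0.544%, 7.33%, 3.01% and 42.1%. RefSeq promoters were found for 19 of the 25 tested members, and of these 2 hold the EGR motif (Plxna2 and Sema6d), 0 the AP-1 motif, 0 the YY1 motif and 7 the SOX motif. The median share of G and C was 60.3% in these 19 promoters and 51.7% in all promoters. A GC box is in 11 of the 19, against 33.1% of all promoters. The part of base composition in the matches was not tested. A match is a match of letters only, and its absence concerns these windows only.

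Of the 5 plexins, the signal-transducing receptors, 0 were called by edgeR or DESeq2, which gave no adjusted p for Plxna2. At an unadjusted p under 0.05 there were 0, against 21.8% of all genes. Plxnd1, the receptor of Sema3e, had 67.2 and 56.3 CPM in Lenti-GFP and 57.1 and 49.8 CPM in Lenti-AS, with overlapping groups (log2 fold change -0.21, standard error 0.11, adjusted p = 0.338). Plxna3, a partner of the neuropilins, had 95.7 and 91.2 CPM in Lenti-GFP and 88.5 and 110 CPM in Lenti-AS. Its Lenti-GFP samples lay between the Lenti-AS samples, and the log2 fold change was 0.09 (standard error 0.11). Plxnb2, a receptor of class 4 semaphorins, had 162 and 151 CPM in Lenti-GFP and 165 and 195 CPM in Lenti-AS. It was the only plexin whose groups did not overlap, and it was not called (log2 fold change 0.20, standard error 0.09, adjusted p = 0.258). Plxnb3, a receptor of Sema5a, had 202 and 170 CPM in Lenti-GFP and 183 and 223 CPM in Lenti-AS, again with overlap. Plxna2 had 56 to 94 counts per sample and a log2 fold change of -0.08 (standard error 0.28). Values of the plexins depended on the Lenti-AS sample used. Without Lenti-AS 1, Plxna3, Plxnb2 and Plxnb3 had log2 fold changes of 0.23, 0.31 and 0.27 (adjusted p = 0.0094, 0.000649 and 0.00931), which passed the adjusted p threshold while all 3 stayed under 1.3-fold. Without Lenti-AS 2 they had -0.08, 0.08 and -0.02 and did not pass. Plxnd1 also had an adjusted p under the threshold without Lenti-AS 1 only (-0.31, adjusted p = 0.00502).

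Of the 10 tested transmembrane semaphorins, 0 were called by edgeR or DESeq2, which gave no adjusted p for 2 of them. At an unadjusted p under 0.05 there was 1 (10.0%), against 21.8% of all genes. Sema7a was not called either. Sema7a, which acts through integrin β1 as well as a plexin, had 60.1 and 58.9 CPM in Lenti-GFP and 69.6 and 75.2 CPM in Lenti-AS. The groups were separate, with a log2 fold change of 0.28 (standard error 0.07, adjusted p = 0.110). DESeq2 gave the same log2 fold change with an adjusted p of 0.0093, although the fold change of 1.22 is under the limit of 1.3. Sema4b had 17.6 and 17.0 CPM in Lenti-GFP and 21.9 and 20.1 CPM in Lenti-AS, also separate and not called (log2 fold change 0.28, adjusted p = 0.128). Sema4f, which has been linked to the contact of SCs with axons, had 14.4 and 13.5 CPM in Lenti-GFP and 14.6 and 15.8 CPM in Lenti-AS, a log2 fold change of 0.13 (standard error 0.09, adjusted p = 0.440). Sema6d, a ligand of class A plexins, had 97.04 and 104 CPM in Lenti-GFP and 96.7 and 107 CPM in Lenti-AS, which differ by less than the spread within groups. The 10 tested transmembrane members had a median log2 fold change of 0.07 and ranged from -0.39 for Sema5a, with 8 to 24 counts per sample, to 0.63 for Sema6c, with 64 to 209 counts.

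In Sema4c, Sema6b and Sema6c the Lenti-AS samples lay on either side of the controls. Sema4c, a ligand of Plxnb2, had 69.3 and 67.8 CPM in Lenti-GFP but 78.4 CPM in Lenti-AS 1 and 57.4 CPM in Lenti-AS 2, from 6872 and 4318 counts, so that the control values lay between them. With all samples its log2 fold change was -0.01 (standard error 0.14). Without Lenti-AS 1 it was -0.25 (adjusted p = 0.00606) and without Lenti-AS 2 it was 0.19 (adjusted p = 0.0230), in opposite directions and under 1.3-fold in both. Each of these fits compares a single Lenti-AS sample with the controls, whose spread alone sets the p-value. Sema6c had 2.38 CPM in Lenti-AS 1 and 0.851 CPM in Lenti-AS 2, against 1.19 and 0.907 CPM in Lenti-GFP. Its log2 fold change was 1.19 without Lenti-AS 2 (adjusted p = 0.0011) and -0.30 without Lenti-AS 1. Sema6b had 1.91 and 2.39 CPM in Lenti-GFP, 2.94 CPM in Lenti-AS 1 and 1.84 CPM in Lenti-AS 2, with log2 fold changes from -0.23 to 0.45 over the same fits. Col1a1 also differed between these samples, with 2131 CPM in Lenti-AS 1 and 290.1 CPM in Lenti-AS 2, and the part of such differences in the values of these genes was not tested. Sema6b, Sema4g, Sema4a and Sema4d were not called, with log2 fold changes of 0.16, 0.22, 0.01 and -0.06 and a mean of 2.27, 6.20, 1.68 and 0.373 CPM over all samples.

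Significance of the 4 called members depended on the samples and the model fitted. Over the fits that omit a single sample, log2 fold changes were -0.64 to -0.52 for Sema3c, -0.71 to -0.60 for Sema3e, -0.78 to -0.65 for Nrp1 and 0.39 to 0.48 for Nrp2. All 4 passed the threshold without Lenti-AS 1 or Lenti-AS 2. The spread in these fits comes from the Lenti-GFP pair alone, and calls over all genes rose to 567 higher and 278 lower without Lenti-AS 1 and to 1260 higher and 255 lower without Lenti-AS 2. Without Lenti-GFP 1, 0 of the 4 passed (adjusted p from 0.191 to 0.356), and without Lenti-GFP 2, 0 of the 4 passed (0.276 to 0.499). In these fits 0 of all genes were called higher and 1 was called lower, and the lone control sample is assumed to vary as the Lenti-AS samples do. A fit with the replicate number as a block also ended all 4 calls (adjusted p from 0.068 to 0.115).

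**Figure D4:**
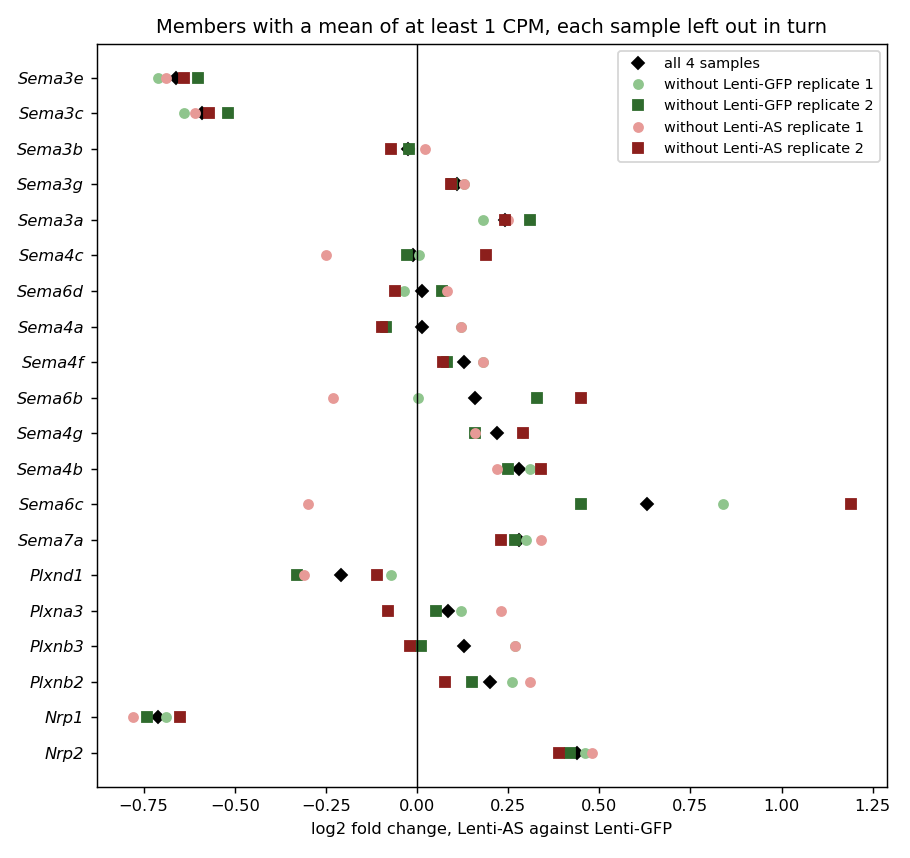
Log2 fold change (horizontal axis) of members with a mean of at least 1 CPM (vertical axis) in the fit of all 4 samples and in fits that leave out 1 sample each. The points of Sema3c, Sema3e, Nrp1 and Nrp2 stay on one side of 0, while Sema4c ranges from -0.25 to 0.19 and Sema6c from -0.30 to 1.19.

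Genes that work with the family were read from lists of cell surface partners, VEGF ligands and receptors, cytosolic effectors and proteases. Of the 39 effectors tested, 1 was called lower (2.56%, against 0.667% of all genes) and 0 higher (against 1.31%). At an unadjusted p under 0.05, 10 had a higher and 6 a lower level, together 41.0% where all genes gave 21.8%. DESeq2 called 4 of the 39 higher and 1 lower, where it called 3.92% and 1.12% of all genes, and gave no adjusted p for 5. The called gene was Rap1a, which encodes a Rap GTPase of the kind plexins switch off. It had 550.3 and 594 CPM in Lenti-GFP and 440.02 and 418 CPM in Lenti-AS, both lower than either control (log2 fold change -0.42, standard error 0.06, adjusted p = 0.0417). Without Lenti-GFP 1 or Lenti-GFP 2, 0 genes of these lists were called. Rac1, a GTPase of actin remodelling, had 36.5 and 36.3 CPM in Lenti-GFP and 55.2 and 46.1 CPM in Lenti-AS (log2 fold change 0.48, adjusted p = 0.0755, DESeq2 adjusted p = 0.000698). Mical3, of a family of actin-oxidising enzymes that bind plexins, had 47.3 and 43.9 CPM in Lenti-GFP and 67.5 and 57.3 CPM in Lenti-AS (log2 fold change 0.45, adjusted p = 0.0840, DESeq2 adjusted p = 0.000962). Both had separate groups and were called by DESeq2 but not by edgeR's quasi-likelihood test.

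Of the 12 surface partners tested, 0 were called by edgeR or DESeq2, which gave no adjusted p for 4 of them, and 2 (16.7%) had an unadjusted p under 0.05, against 21.8% of all genes. These were the adhesion gene Alcam (188 and 197 CPM in the controls, 156 and 160 CPM in Lenti-AS, log2 fold change -0.29, adjusted p = 0.0634) and the integrin gene Itgb1 (log2 fold change -0.19, adjusted p = 0.152). Of the 6 tested VEGF ligands and receptors, 0 were called by edgeR. At an unadjusted p under 0.05 there was 1 (16.7%), Vegfb, against 21.8% of all genes. DESeq2 called Vegfb higher, where it called 3.92% of all genes higher, and gave no adjusted p for 3. Vegfb, which binds Nrp1, had 3.27 and 3.23 CPM in Lenti-GFP and 8.92 and 4.47 CPM in Lenti-AS, a log2 fold change of 1.05 (adjusted p = 0.146) with Lenti-AS 1 well above Lenti-AS 2. Among 8 proteases that cleave semaphorins or neuropilins, 0 were called by either tool and 1 (12.5%, against 21.8% of all genes) had an unadjusted p under 0.05, Pcsk6, with a log2 fold change of -0.57 (adjusted p = 0.132).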

How the data were processed

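RNA-seq counts of 4 samples of rat SCs were used, grouped by their titles. The deposited values are whole-number counts per gene, which the authors made with featureCounts on RefSeq exons of rn6 from paired-end reads of 50 bp. The aligner is hisat2 in the paper's methods and GSNAP in the submitters' processing notes, and versions and strand setting are not given in the sources used here. Without the strand setting, reads of antisense neighbours cannot be told apart. The table holds 17949 genes, and 1 row repeating the header was dropped. A gene entered the test when 2 or more samples had 10 or more counts. The test was edgeR 4.0.16 (R 4.3.3) with TMM factors, glmQLFit and glmQLFTest, with Benjamini-Hochberg adjustment over all genes tested. The biological coefficient of variation was 12.1%. Standard errors came from the F statistic. Alternatives were DESeq2 1.42.0, limma-voom (limma 3.58.1), other scalings, filters and samples left out. The fits were tested on simulated data, where they recovered most changed genes in the right direction but made more false calls than the nominal rate. Whether equal replicate numbers mark the same biological replicate is not given in the sources used here.

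The family and the lists were chosen with earlier results of these data known, and within the family every matching symbol was taken. Values per sample were given for members with an unadjusted p under 0.05, called by DESeq2 or with a mean of at least 20 CPM, with Sema4f, Sema6c and some low genes added after their values were seen. From each list, called genes were named, or up to 3 with the smallest unadjusted p under 0.05, and Rac1 and Mical3 were added. Total counts per sample were 74024323 to 96185890. Transcript lengths of rn6 were not used here, so levels were not compared between genes. Promoter sequences are from RefSeq (GRCr8), matched by symbol.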

Additional observations from a re-analysis of the deposited data

How the results depend on the processing

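The number of members called was 1 higher and 3 lower with DESeq2, limma-voom, the newer quasi-likelihood fit, RLE and upper-quartile factors, library totals, both other filters and without the globin genes, and the same 4 genes were called in each. The likelihood ratio test added Sema3d (adjusted p = 0.0107). Deviations of samples with the same number had a correlation of -0.0176 over 12446 genes. With 2 samples per group this cannot tell whether the numbers mark pairs. The main fit left them unpaired, and a fit with the replicate number as a block was an alternative. With a replicate block, 0 members were called higher and 0 lower (adjusted p from 0.068 to 0.115 for the 4 genes, with the same log2 fold changes), 3 and 14 of all genes, and 0 lower genes of the pathway lists. Leaving out one sample gave 0 to 2 members higher and 0 to 4 lower, 0 to 1260 and 1 to 278 of all genes, and 0 to 15 and 0 to 4 of the pathway lists.

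Against 163 higher and 83 lower of all genes, DESeq2 called 488 and 139, the likelihood ratio test 374 and 147, and 788 and 238 had an unadjusted p under 0.05 with the same fold limit. The pathway lists, with 0 higher and 1 lower, gave 5 higher with DESeq2, 6 with the likelihood ratio test, and 9 higher and 3 lower at an unadjusted p under 0.05 with the same fold limit. For all members the median was 0.046 with library totals, 0.11 at 1 CPM in 2 samples and 0.021 to 0.097 with one sample left out. For secreted semaphorins it was -0.30 at 1 CPM in 2 samples and -0.27 to -0.022 with one sample left out. For transmembrane semaphorins it was 0.011 with no filter, 0.15 at 1 CPM in 2 samples and -0.066 to 0.17 with one left out. For plexins it was -0.020 to 0.23 and for neuropilins -0.16 to -0.11 with one left out, and -0.11 for neuropilins with library totals. For all genes it was 0.003 with limma-voom, 0.018 with upper-quartile factors, 0.039 with library totals, 0.005 at 1 CPM in 2 samples, 0.004 with the block, 0.010 without globin genes and -0.004 to 0.013 with one left out. The cause of these shifts was not tested.

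With library totals Sema3b (0.0082) and Sema4c (0.0184) changed sign. Leaving out one sample turned the direction of uncalled members, with ranges of -0.30 to 0.11 for Plxna2, -0.0784 to 0.23 for Plxna3, -0.0201 to 0.27 for Plxnb3, -0.0706 to 0.0209 for Sema3b, -0.27 to 0.0965 for Sema3f, -0.0952 to 0.12 for Sema4a, -0.25 to 0.19 for Sema4c, -0.32 to 0.19 for Sema4d, -0.96 to 0.59 for Sema5a, -0.23 to 0.45 for Sema6b, -0.30 to 1.19 for Sema6c and -0.0593 to 0.0823 for Sema6d. Depth limited the low members: standard errors were 0.28 for Plxna2 and Sema3f and 0.64 for Sema5a.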

Other observations

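Of 14 tested genes of the Slit, Robo, netrin, netrin receptor and repulsive guidance molecule families, 0 were called by edgeR's quasi-likelihood test, and 5 (35.7%) had an unadjusted p under 0.05, against 21.8% of all genes. DESeq2 called 0 and gave no adjusted p for 6 of them, among these the 3 named next. The genes with higher fitted levels in Lenti-AS, which did not pass adjustment, were Ntn5 (0.386 and 0.264 CPM in the controls, 0.696 and 0.944 CPM in Lenti-AS, log2 fold change 1.33, adjusted p = 0.115), Rgma, a repulsive ligand of neogenin (0.836 and 0.739 CPM against 2.27 and 1.33 CPM, log2 fold change 1.20, adjusted p = 0.117), and Ntn1, netrin-1 (log2 fold change 1.81, adjusted p = 0.137). All 3 lie at or under 2.27 CPM. Robo2, a Slit receptor, had 2.39 and 2.34 CPM in Lenti-GFP and 1.65 and 1.28 CPM in Lenti-AS (adjusted p = 0.149), and its ligand gene Slit2 had a log2 fold change of -0.19 (adjusted p = 0.227). Of 6 tested ephrin ligands 1 was called lower (16.7%, against 0.667% of all genes). This was Efna2, with 28.0 and 28.04 CPM in Lenti-GFP and 4.06 and 4.04 CPM in Lenti-AS (log2 fold change -2.79, adjusted p = 0.000605). Of 10 tested Eph receptors 0 were called. At an unadjusted p under 0.05 there were 2 of the 10, a share below the 21.8% of all genes. DESeq2 called 1 of the 10 lower, where it called 1.12% of all genes lower, and gave no adjusted p for 3.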
